A study of Mus musculus with 15 samples.

Results

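The genes described here are p53 itself, its regulators and its established target genes, measured in mouse T cells and T cell lymphomas that derive from p53-null T cells. The list held 32 genes and was set by name, with earlier results of these data known. Of these, 30 were read from the array and 2, the p53 gene among them, are not analysed here, so the deletion was not checked on these arrays. Tnfrsf10b did not reach the signal needed for testing, which left 29 members among the 11902 genes tested. The study comprised 15 samples, each on 1 oligonucleotide array. Of these, 3 were resting T cells and 3 were T cells activated in culture, all from 5-week-old p53-knockout C57BL/6 mice and sorted from liver or spleen. The other 9 were peripheral T cell lymphomas (mPTCL 1 to 9), sorted from the liver of C57BL/6 CD3-knockout recipients of p53-knockout T cells. The growth protocol of the normal samples names repeated injections of saline or heat-killed Streptococcus pneumoniae, without saying which donors received either. A p53 deletion is labelled for the transferred cells and not for the recipients, and a recipient without CD3 lacks its own T cells but keeps other blood cells. The p53 allele, the activating stimulus and the animal behind each replicate are not stated, so each p-value reflects only how far these samples scatter, part of which may be technical.

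p53 is a transcription factor that is held low by the ubiquitin ligase Mdm2 and its partner Mdm4 and is stabilised when DNA is damaged. It then binds target genes that stop the cell cycle, such as Cdkn1a (p21), start cell death, such as Bbc3 (Puma), or repair DNA, and it raises Mdm2, which closes a feedback loop. Mice without p53 are prone to T cell tumours. Most target genes also answer to other factors, so they can be expressed where p53 is missing.

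Promoters of 4 members are shown because, of the genes that changed and hold either a pair of p53 half-sites or the CHR element TTTGAA just before a transcription start, they had the largest changes. Ercc5, the fifth such gene, holds a CHR and is not shown. The half-site is the short palindromic motif that p53 binds in pairs. Only exact matches to RRRCWWGYYY (R is A or G, W is A or T, Y is C or T) were counted and marked. A half-site with a mismatch therefore stays in lower case, also where it lies beside a marked half-site. The CHR is the element through which p21 and the DREAM complex are known to hold down division genes. Each sequence is the 250 bases before a RefSeq start site (mouse build GRCm38.p6), written 5′ to 3′ on the gene's strand, with the motifs in capitals.
Ckap2, minus strand, chr8:22185820-22186069: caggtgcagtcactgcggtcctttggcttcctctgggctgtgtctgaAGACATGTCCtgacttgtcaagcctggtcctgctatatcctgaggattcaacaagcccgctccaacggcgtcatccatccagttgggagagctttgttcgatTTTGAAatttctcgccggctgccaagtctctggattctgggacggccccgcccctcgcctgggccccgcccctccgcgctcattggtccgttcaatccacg
Fas, plus strand, chr19:34290409-34290658: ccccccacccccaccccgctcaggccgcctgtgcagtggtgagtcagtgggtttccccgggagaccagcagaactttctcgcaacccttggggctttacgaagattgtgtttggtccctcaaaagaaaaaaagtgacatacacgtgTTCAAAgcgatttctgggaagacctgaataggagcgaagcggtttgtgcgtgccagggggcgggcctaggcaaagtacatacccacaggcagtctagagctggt
Cdkn1a, plus strand, chr17:29090729-29090978: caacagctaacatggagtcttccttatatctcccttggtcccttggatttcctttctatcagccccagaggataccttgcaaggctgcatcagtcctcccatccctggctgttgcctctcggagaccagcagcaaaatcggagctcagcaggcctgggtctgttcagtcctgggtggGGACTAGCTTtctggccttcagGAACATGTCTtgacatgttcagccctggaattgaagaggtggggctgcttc
Aen, plus strand, chr7:78895677-78895926: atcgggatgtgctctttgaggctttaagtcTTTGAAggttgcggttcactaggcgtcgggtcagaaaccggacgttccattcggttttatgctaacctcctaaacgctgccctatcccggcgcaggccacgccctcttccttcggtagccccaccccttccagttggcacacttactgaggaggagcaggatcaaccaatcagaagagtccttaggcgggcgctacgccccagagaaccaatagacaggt

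Ckap2 held both motifs, with the half-site beginning 203 bases and the CHR 101 bases before the start. Fas held the CHR on the opposite strand, where it reads TTCAAA. Aen held the CHR 220 bases before this start, and a half-site lay in the window of its second start. The Cdkn1a window is that of an upstream start site, 2790 bases before the other annotated one. It was the single member window with 2 half-sites separated by at most 13 bases, an arrangement found in 0.0639% of all 32851 promoter windows of this length. A half-site was found in 10 of the 22 members that had a promoter entry (34.5% of their 29 windows, against 7.13% of all windows), and a CHR in 4 (13.8% of windows, against 16.0%). Polk held a single half-site in 1 of its 2 windows and no motif in the other. Both motifs were searched on both strands, and a match is a description of letters, not a bound site.

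Each array was scaled by the authors to the same 2% trimmed mean signal, 500. Across the tested genes, arrays of 1 group correlated at 0.968 to 0.976 in resting cells, 0.970 to 0.974 in activated cells and 0.761 to 0.924 in lymphomas. The T cell markers (8 on the array) averaged 13.11 to 13.37 on the log2 scale in resting cells, 12.90 to 12.97 in activated cells and 9.11 to 12.48 in lymphomas, with 1 marker at the floor in mPTCL 4 and none at the floor in the other arrays. Markers of other cells also differed between lymphomas. The mean of 10 neutrophil markers ran from 5.67 to 12.42 in lymphomas against 5.99 in the highest normal array, and it was above 10 in mPTCL 1, 2, 4, 5 and 8. The mean of 9 B cell markers was 10.46 in mPTCL 1, 11.95 in mPTCL 5 and 8.84 in mPTCL 4, against 8.51 in the highest normal array. The mean of 4 hepatocyte markers was 8.4 in mPTCL 8 and at most 6.02 in any other array. That of 4 erythroid markers was 9.21 in mPTCL 9 and 8.74 in mPTCL 8, against 6.46 in the highest normal array. The mean of 5 NK cell markers ran from 6.32 to 11.86 in lymphomas and from 8.86 to 9.43 in resting cells. Several of these were high in the normal T cell samples too, such as Klrd1 (mean 13.22 resting, 14.18 activated) and Eomes (10.57, 9.78), while Ncr1 was low (5.77, 5.00). Their mean therefore does not mark NK cells alone. The mean of 9 macrophage markers ran from 5.48 to 10.21 in lymphomas, from 7.15 to 7.71 in resting cells and from 5.43 to 5.49 in activated cells. The mean of 6 stromal markers, mostly collagens and matrix proteins, ran from 5.24 to 5.42 in resting cells and from 7.04 to 7.78 in activated cells, where 5 of the 5 tested rose, and from 5.18 to 8.06 in lymphomas, highest in mPTCL 4. The part of these other cells in the member changes with activation was not tested. Actin probe sets read near the 3′ end over those read near the 5′ end, a ratio that degraded RNA raises, gave 1.26 to 1.54 in normal arrays and 1.47 to 2.65 in lymphomas. In these bulk samples, fewer cells of a type and less RNA per cell cannot be told apart.

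Members changed in both directions in each comparison, and which genes moved differed between them. Ckap2 and Cdkn1a rose over resting cells in both activated cells and lymphomas, Plk3 and Aen fell with activation and were higher in lymphomas than in activated cells, and Mdm4 and Btg2 were lower in lymphomas than in either normal group. A gene was called when the adjusted p of limma (Benjamini-Hochberg over all tested genes) was under 0.05 and the change at least 2-fold. In activated against resting cells 4 members rose and 2 fell, 20.7% of the 29 against 12.7% of all tested genes (8.45% higher and 4.23% lower). In lymphomas against resting cells 3 rose and 4 fell, 24.1% against 13.9% (7.03% higher, 6.84% lower). In lymphomas against activated cells 2 rose and 5 fell, also 24.1%, against 15.3% (7.04% higher, 8.28% lower). The balance of directions depended on scaling. Centring each array on its median moved the median change of all genes to -0.26, 0.05 and 0.27. The called members then split into 2 higher and 4 lower, 3 and 4, and 4 and 3. Over all genes, the calls were then 743 higher and 1176 lower, 818 and 662, and 1515 and 504. As deposited they were 1006 and 504, 837 and 814, and 838 and 986. Of all called genes, 66.6% rose with activation as deposited, 38.7% after median centring and 56.5% after quantile normalization, and 45.9%, 75% and 54.1% were higher in lymphomas than in activated cells. The lymphoma comparisons share their 9 lymphomas, and each normal group enters a pair of comparisons. Lymphomas and normal cells also differ in host, in sorted organ and in processing note. Neither lymphoma comparison can tell these differences from the tumour state. The median member change was 0.10, -0.42 and -0.55 log2 units in this order, beside 0.02, -0.02 and -0.08 for all tested genes. In total 14 members were called in at least 1 comparison, or 48.3% against 28.9% of all tested genes, and 15 in none. Because the list was chosen with earlier results of these data known, the member shares are a description and not a test of the set. Groups did not overlap for 16 of 29 members between activated and resting cells (46.6% of all genes), for 7 between lymphomas and resting cells (19.4%) and for 5 between lymphomas and activated cells (22.1%).

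**Figure D1:**
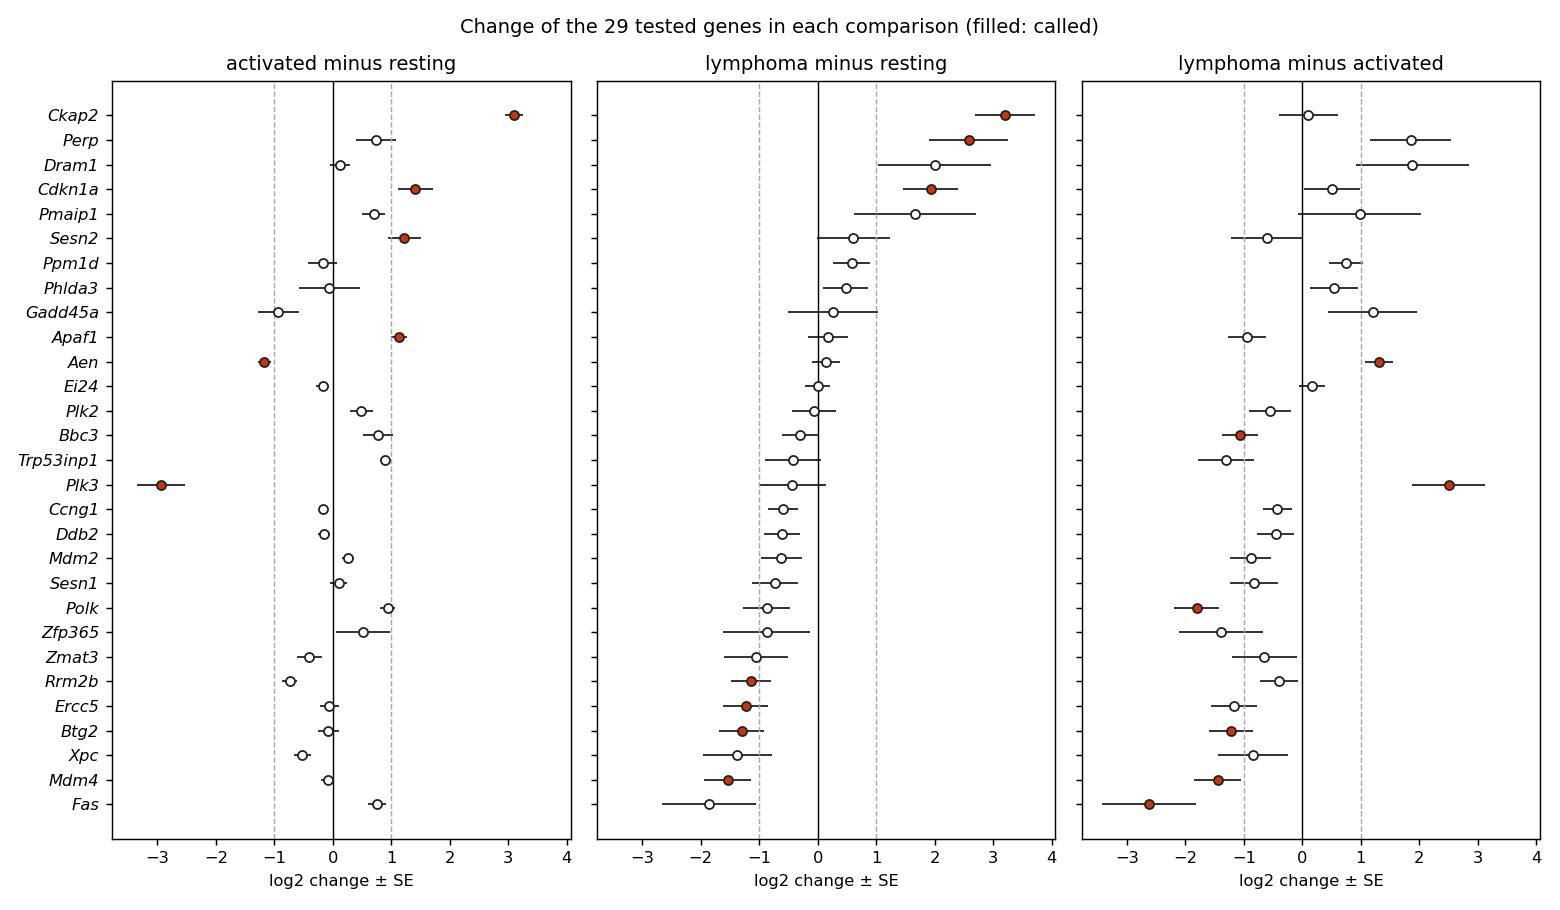
Log2 change of each of the 29 tested members (horizontal axis, with its standard error) in the 3 comparisons, ordered by the change in lymphomas against resting cells. Filled points were called and dashed lines mark 2-fold; Ckap2 has the highest change in both comparisons with resting cells (3.10 and 3.20), and Fas the lowest in both comparisons of lymphomas (-1.86 and -2.62).

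Among the genes of cell cycle arrest, Cdkn1a and Ckap2 were higher in both dividing states than in resting cells. Cdkn1a, which encodes the cyclin-dependent kinase inhibitor p21, measured 6.53, 6.22 and 6.68 on the log2 scale in resting replicates 1 to 3, 7.37, 8.32 and 7.97 in activated replicates 1 to 3, and 7.12 to 9.27 with a median of 8.52 in lymphomas. All activated cells and all lymphomas lay above the resting cells, and the lymphomas overlapped the activated cells, with mPTCL 7 (7.12) and 9 (7.14) below all 3 of them. The rise was 1.41 ± 0.30 log2 units in activated cells (± SE, 3 arrays a group; a 2.66-fold difference with a limma adjusted p of 0.0141) and 1.93 ± 0.47 in the 9 lymphomas (3.8-fold, adjusted p = 0.0143), while lymphomas and activated cells differed by 0.51 ± 0.48 (adjusted p = 0.460). Of its probe sets the other one was at the floor in 11 of 15 arrays.

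Ckap2, a microtubule-binding protein of dividing cells that is also listed among p53 targets, measured 6.89, 7.05 and 7.04 in resting cells, 10.09, 10.09 and 10.11 in activated cells and 8.40 to 11.12 with a median of 10.64 in lymphomas. It stood above the resting cells in every activated and lymphoma array, by 3.10 ± 0.15 (8.59-fold, limma adjusted p = 1.02e-04) and 3.20 ± 0.51 (9.21-fold, adjusted p = 0.00121), the largest member change in both of these comparisons. Its lowest lymphoma value was that of mPTCL 4 (8.40), which also had the lowest mean of the 9 division genes held down by p21 and DREAM (9.44, against 10.61 to 12.33 in the other lymphomas). All 9 of those division genes rose in activated cells and in lymphomas over resting cells, and none differed between lymphomas and activated cells in limma (0 at an unadjusted p under 0.05).

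Plk3, a stress-responsive kinase of the Polo family, was low in activated cells. It measured 8.35, 8.73 and 8.44 in resting cells, 5.14, 6.49 and 5.11 in activated cells and 6.49 to 9.64 with a median of 8.10 in lymphomas. Activated cells lay below all resting cells, and mPTCL 3 (6.49) met the highest activated value. Activated replicates 1 and 3 (5.14 and 5.11) lay close to the floor of 5. The level fell by 2.93 ± 0.41 with activation (7.60-fold, limma adjusted p = 0.00321) and was 2.50 ± 0.62 higher in lymphomas than in activated cells (5.66-fold, adjusted p = 0.0136).

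Btg2, which slows entry into S phase, was low in lymphomas. It measured 12.32, 12.95 and 12.93 in resting cells, 12.75, 12.64 and 12.56 in activated cells, and 10.10 to 12.12 with a median of 11.46 in lymphomas. Every lymphoma lay below every normal array. Its change was -1.30 ± 0.38 against resting cells (2.46-fold lower, limma adjusted p = 0.0322) and -1.22 ± 0.37 against activated cells (2.32-fold lower, adjusted p = 0.0343), and a second probe set gave -0.50 and -0.56.

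The other arrest genes were called in no comparison with the main settings. Ccng1 (cyclin G1), a textbook p53 target, measured 12.32, 12.41 and 12.38 in resting cells, 12.26, 12.09 and 12.28 in activated cells and 11.38 to 12.51 in lymphomas, with changes of -0.16 ± 0.08 (limma adjusted p = 0.192), -0.59 ± 0.25 (0.122) and -0.43 ± 0.25 (0.242) in the order of the comparisons above. Its other 2 probe sets gave -0.86 and -1.32 in lymphomas against resting cells and -1.03 and -1.04 against activated cells. With all its probe sets averaged, the adjusted p was under the threshold in both (-0.92, 0.00796, and -0.83, 0.0111), at less than 2-fold. On the probe set used, 7 of the lymphomas lay at or below 11.77, and mPTCL 7 (12.50) and 9 (12.51) stood above all resting cells. Gadd45a, a growth arrest and repair protein, was at 7.46 to 8.46 in resting cells, 6.84 to 7.58 in activated cells and 7.67 to 9.54 in 8 lymphomas, with mPTCL 3 at the floor of 5. Without mPTCL 3 it would have been called over activated cells (1.62, adjusted p = 0.0157, against 1.2 and 0.281 with it). Between activated and resting cells Gadd45a was called in 1 of 6 fits that left out an array and in 1 of 13 other settings. Plk2, another Polo family kinase, differed by 0.49, -0.06 and -0.55. Zfp365, a genome stability factor, differed by 0.52, -0.87 and -1.39 (adjusted p from 0.105 to 0.935 for both genes). In lymphomas against activated cells Zfp365 was called in 2 of 14 settings other than single left-out arrays. The other Plk2 probe set, at the floor in 8 arrays, gave 0.10 with activation. In lymphomas that probe set went the other way, with 1.38 against resting cells and 1.28 against activated cells.

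**Figure D2:**
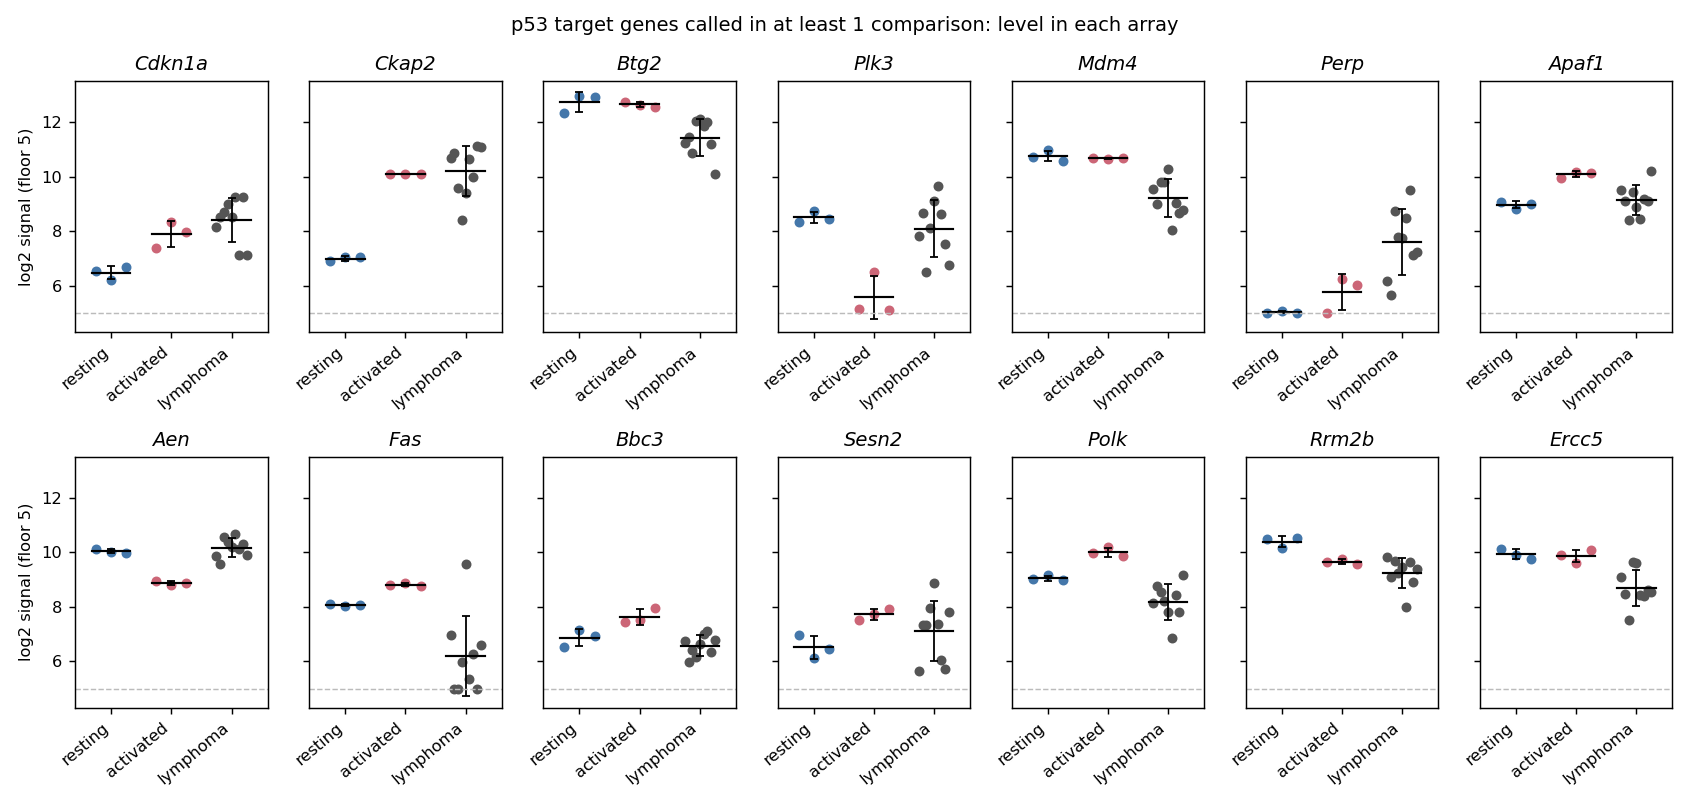
Log2 signal in each array (vertical axis, floor of 5 dashed) of the 14 members called in at least 1 comparison, by group; bars are the mean and SD of 3 resting, 3 activated and 9 lymphoma arrays. Cdkn1a and Ckap2 are higher in both dividing groups than in resting cells, Btg2 and Mdm4 are lower in lymphomas, and 1 lymphoma stands alone in Fas at 9.59.

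Of the negative regulators of p53, Mdm4 fell in lymphomas and Mdm2 and Ppm1d did not pass. Mdm4, which blocks the activating domain of p53, measured 10.73, 10.96 and 10.59 in resting cells, 10.69, 10.63 and 10.68 in activated cells and 8.03 to 10.29 with a median of 9.05 in lymphomas. Every lymphoma lay below every normal array. The change was -1.54 ± 0.40 against resting cells (2.92-fold lower, limma adjusted p = 0.0192) and -1.45 ± 0.40 against activated cells (2.74-fold lower, adjusted p = 0.0220), and its 3 other probe sets gave -1.22, -0.33 and -0.06 against resting cells.

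Mdm2, the ligase that p53 itself induces, measured 11.25, 11.37 and 11.13 in resting cells, 11.41, 11.52 and 11.60 in activated cells and 9.84 to 11.94 with a median of 10.62 in lymphomas. Only mPTCL 5 (11.94) stood above the normal arrays, and the other 8 lymphomas lay between 9.84 and 10.93, below all of them. The changes were 0.26 ± 0.10 (limma adjusted p = 0.0869), -0.62 ± 0.35 (0.239) and -0.88 ± 0.35 (0.0917). Without mPTCL 5 the last became -1.04 and passed (adjusted p = 0.0120). The other Mdm2 probe sets gave 0.24 and 0.83 with activation. In lymphomas they gave -0.94 and 0.02 against resting cells, and -1.18 and -0.81 against activated cells. Ppm1d (Wip1), a phosphatase that ends p53 signalling, was at 8.27 to 9.17 in resting cells, 8.46 to 8.73 in activated cells and 8.67 to 10.25 in lymphomas (0.75 ± 0.29 over activated cells, adjusted p = 0.0864).

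The genes of cell death split by state. Apaf1, the scaffold of the apoptosome, rose with activation. It measured 9.08, 8.83 and 8.99 in resting cells, 9.96, 10.18 and 10.14 in activated cells and 8.42 to 10.22 with a median of 9.11 in lymphomas. Activated cells lay above all resting cells by 1.13 ± 0.13 (2.19-fold, limma adjusted p = 0.00156), and the lymphomas spanned both (0.18 ± 0.34 against resting cells, adjusted p = 0.743; -0.95 ± 0.33 against activated cells, 0.0595). A second probe set gave 1.37 with activation and, in lymphomas, -0.94 against resting and -2.31 against activated cells. The difference from activated cells was called with probe sets averaged (-1.63, adjusted p = 0.0109) and without mPTCL 9 (-1.08, 0.0172). Aen, an exonuclease of apoptosis, went the other way, at 10.12, 10.03 and 9.98 in resting cells, 8.94, 8.80 and 8.87 in activated cells and 9.58 to 10.69 with a median of 10.19 in lymphomas. Activated cells lay below both other groups, by -1.17 ± 0.11 against resting cells (2.25-fold, adjusted p = 9.33e-04), and lymphomas were 1.31 ± 0.24 higher than activated cells (2.48-fold, adjusted p = 0.00324). The fall of Aen appeared in all 4 of its probe sets (-0.47 to -1.19), whereas the difference between lymphomas and activated cells was 0.42, 0.64 and -0.21 in the other 3.

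Bbc3, the p53-induced killer Puma, measured 6.53, 7.14 and 6.94 in resting cells, 7.44, 7.50 and 7.97 in activated cells and 5.96 to 7.11 with a median of 6.65 in lymphomas. Every lymphoma lay below every activated array and overlapped the resting cells. The difference from activated cells was -1.07 ± 0.31 (2.10-fold lower, limma adjusted p = 0.0269), while activation itself gave 0.77 ± 0.26 (adjusted p = 0.0686). Pmaip1 (Noxa), another p53-induced killer, was at 7.79, 7.73 and 7.61 in resting cells, 8.24, 8.71 and 8.28 in activated cells and 5.00 to 11.17 with a median of 10.20 in lymphomas. In this gene mPTCL 7 was at the floor, mPTCL 2 stood at 7.78, and the remaining 7 ran from 8.54 to 11.17. Activation gave 0.70 ± 0.20 (adjusted p = 0.0432), under 2-fold, and the lymphomas did not pass against resting cells (1.67 ± 1.04, adjusted p = 0.284; 2.22, adjusted p = 0.0319 without mPTCL 7).

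Fas, the death receptor that limits T cell responses, measured 8.09, 8.03 and 8.05 in resting cells, 8.79, 8.88 and 8.78 in activated cells, and 5.00 to 9.59 with a median of 5.99 in lymphomas. It was at the floor in mPTCL 2, 3 and 8 and at 9.59 in mPTCL 5, which alone stood above the normal arrays, and the other 8 lymphomas reached 6.98 at most. The change from activated cells to lymphomas was -2.62 ± 0.80 log2 units (at least 6.14-fold lower, limma adjusted p = 0.0344). The difference from resting cells did not pass (-1.86 ± 0.80, adjusted p = 0.122, and -2.28, adjusted p = 0.00608 without mPTCL 5). With activation it rose by 0.76 ± 0.15 (adjusted p = 0.0113), under 2-fold. Perp, a membrane protein of p53-dependent death and of epithelial junctions, was at 5.00, 5.07 and 5.00 in resting cells, where 2 arrays were at the floor, at 5.00, 6.24 and 6.04 in activated cells and at 5.67 to 9.50 with a median of 7.74 in lymphomas. All lymphomas lay above the resting cells, by 2.58 ± 0.67 (at least 5.99-fold, adjusted p = 0.0191). Its highest value was that of mPTCL 7 (9.50), where the T cell marker mean was the highest of the lymphomas (12.48) and the neutrophil marker mean was 6.12. Its lowest values were those of mPTCL 2 (5.67) and 1 (6.18), where the T cell marker means were 11.71 and 11.7. In mPTCL 3, with the next highest Perp level (8.74), that mean was 10.17. The part of the cell mixture in the Perp level was not tested.

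The remaining death genes were called in no comparison. Trp53inp1, a promoter of p53-dependent apoptosis and autophagy, was at 13.11, 13.04 and 12.98 in resting cells, 13.86, 13.88 and 14.05 in activated cells and 11.29 to 14.39 with a median of 12.53 in lymphomas. It rose by 0.89 ± 0.09 with activation (limma adjusted p = 0.00115), under 2-fold, and was -1.31 ± 0.48 against activated cells in lymphomas (adjusted p = 0.0687; -1.53, adjusted p = 0.00924 without mPTCL 5). Against resting cells the lymphomas gave -0.42 ± 0.48 (adjusted p = 0.570). A second Trp53inp1 probe set gave 0.73 with activation and, in lymphomas, -1.52 against resting and -2.25 against activated cells. Of 14 alternative settings other than single left-out arrays, 5 called the difference from activated cells. Zmat3, an RNA-binding p53 target, was at 9.97, 9.94 and 9.33 in resting cells, 9.41, 9.10 and 9.52 in activated cells and 6.33 to 10.01 in lymphomas, where mPTCL 9 stood lowest (-1.05 ± 0.55 against resting cells, adjusted p = 0.205). Phlda3, which restrains Akt, was weakly expressed, at 5.33 to 6.51 in resting cells, 5.00 to 6.73 in activated cells and 5.60 to 7.20 in lymphomas. Dram1, a lysosomal p53 target, was at the floor in all resting cells and 5.00 to 9.77 in lymphomas (adjusted p = 0.165 against resting cells). It was highest in mPTCL 4 (9.77), 1 (9.56) and 5 (8.00), which also held the highest neutrophil marker means of the series (11.85 to 12.42), and it was at the floor in mPTCL 3 and 7, where those means were the lowest of the lymphomas (5.67 and 6.12). Macrophage marker means were 10.21, 8.45 and 8.88 in mPTCL 4, 1 and 5, and 6.49 and 5.48 in mPTCL 3 and 7. In mPTCL 8, where Dram1 was at 6.57, the macrophage mean was 8.65. The part of these other cells in the Dram1 level was not tested. Ei24, a membrane protein of the endoplasmic reticulum, differed by -0.17, 0.00 and 0.17 log2 units in the 3 comparisons (adjusted p from 0.304 to 0.996). Tnfrsf10b, a death receptor for TRAIL, lay between 5.00 and 6.39 in all arrays and was not tested.

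Of the sestrins, which curb growth signalling under stress, Sesn2 was called in 1 comparison and Sesn1 in none. Sesn2 measured 6.95, 6.12 and 6.46 in resting cells, 7.52, 7.73 and 7.93 in activated cells and 5.64 to 8.89 with a median of 7.35 in lymphomas. It rose in activated cells, by 1.22 ± 0.28 (2.33-fold, limma adjusted p = 0.0183), with no overlap, and lymphomas spanned both groups. Sesn1 was at 13.42 to 13.50 in resting cells and 13.36 to 13.84 in activated cells, and at 14.46 in mPTCL 5 against 11.92 to 13.14 in the other lymphomas (-0.73 ± 0.40 against resting cells, adjusted p = 0.227). Without mPTCL 5 its difference from activated cells passed (-1.04, adjusted p = 0.00994, against -0.82 and 0.167 with it).

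DNA repair genes of the set were lower in lymphomas or did not pass. Polk, a polymerase that copies past damaged bases, measured 9.03, 9.16 and 8.98 in resting cells, 9.97, 10.18 and 9.86 in activated cells and 6.86 to 9.15 with a median of 8.20 in lymphomas. Every lymphoma lay below every activated array, by -1.81 ± 0.39 (3.51-fold lower, limma adjusted p = 0.00714), and activation had raised it by 0.94 ± 0.13 (adjusted p = 0.00314), under 2-fold. Rrm2b, the p53-induced ribonucleotide reductase subunit, measured 10.48, 10.17 and 10.53 in resting cells, 9.64, 9.75 and 9.57 in activated cells and 7.99 to 9.82 with a median of 9.40 in lymphomas. Both dividing groups lay below all resting cells, by -0.74 ± 0.13 in activated cells (adjusted p = 0.00719, under 2-fold) and -1.14 ± 0.34 in lymphomas (2.21-fold lower, adjusted p = 0.0325). Its 3 other probe sets gave -2.01, -0.29 and -0.12 in lymphomas against resting cells. Ercc5, the endonuclease XPG of nucleotide excision repair, was at 9.75 to 10.12 in resting cells and 7.50 to 9.65 in lymphomas, all below them (-1.23 ± 0.39, 2.34-fold lower, adjusted p = 0.0463), and reached -1.17 ± 0.39 against activated cells (adjusted p = 0.0522). The damage sensors Xpc (-1.37 ± 0.59 against resting cells, adjusted p = 0.126) and Ddb2 (-0.61 ± 0.31, adjusted p = 0.190) did not pass in lymphomas, and Xpc was -0.52 ± 0.14 in activated cells (adjusted p = 0.0304, under 2-fold). A second Ddb2 probe set, used when those that match several transcripts were left out, gave -1.26 against resting cells (adjusted p = 0.0163).

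With the adjusted p alone and no fold threshold, 12 members passed between activated and resting cells, 8 higher and 4 lower (30.9% of all genes pass so), while the counts in the lymphoma comparisons stayed at 7 and 7 (18% and 20.6% of all genes). Several calls depended on single arrays. Of the 7 members called in lymphomas against resting cells, Ckap2 alone was called when any of the 3 resting arrays was left out, with the other 6 at adjusted p from 0.0529 to 0.171, where 6.54% to 6.95% of all genes were called. Against activated cells 2, 3 and 2 of 7 members were called without activated replicates 1, 2 and 3, with Aen and Polk among them each time, and 7.70% to 7.80% of all genes. Leaving out 1 lymphoma ended the call of Ercc5 against resting cells (without mPTCL 1, 2, 6, 7, 8 or 9), of Rrm2b against resting cells by its fold (-0.99 without mPTCL 6), and, against activated cells, of Fas (without mPTCL 2, 6 or 8), Btg2 (without mPTCL 1 or 8) and Bbc3 (by its fold, -0.99 without mPTCL 2). Between activated and resting cells, Sesn2 did not pass in 3 of the 6 fits that left out an array, those lacking resting 3, activated 2 and activated 3 (adjusted p from 0.0560 to 0.0658) and Cdkn1a did not pass in the last of these (0.0538). Some calls also ended under another setting. With all 15 arrays in 1 fit, Cdkn1a, Sesn2 and Apaf1 did not pass between activated and resting cells (adjusted p = 0.202, 0.446 and 0.128), where 3.34% of all genes were called. When all probe sets of a gene were averaged, Ckap2 and Perp were the members called in lymphomas against resting cells, Cdkn1a fell under 2-fold with activation (0.71), and Aen did not pass between lymphomas and activated cells (0.54, adjusted p = 0.112). After median centring Bbc3 (-0.72, adjusted p = 0.149) and Btg2 (-0.87, 0.107) did not pass against activated cells, and with a floor of 64 Perp did not pass against resting cells (1.64, 0.0869).

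The lymphomas differed from each other more in these genes than the normal samples did. The median SD of a member was 0.13 log2 units in resting cells, 0.18 in activated cells and 0.70 in lymphomas, beside 0.23, 0.19 and 0.60 for all tested genes. The largest spreads were those of Pmaip1 (SD 1.98), Dram1 (1.80), Fas (1.47) and Gadd45a (1.41), and the smallest those of Ei24 (0.33), Aen (0.36), Bbc3 (0.39) and Ccng1 (0.42).

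One tumour, mPTCL 5, held the highest lymphoma value for 12 of the 29 members, or 41.4%, against 17.3% of all tested genes. This was noticed after the values were seen. The 12 were Mdm2, Mdm4, Btg2, Fas, Gadd45a, Phlda3, Plk2, Sesn1, Sesn2, Trp53inp1, Zfp365 and Zmat3. For Mdm2 (11.94 against 10.93 in the next tumour), Fas (9.59 against 6.98), Sesn1 (14.46 against 13.14), Trp53inp1 (14.39 against 13.39), Sesn2 (8.89 against 7.96) and Zmat3 (10.01 against 9.03) the gap was about 1 log2 unit or more. None of the 26 members with a single lowest lymphoma had it in mPTCL 5, against 16.2% of all genes. The same tumour had the highest B cell (11.95) and neutrophil (12.42) marker means, the lowest T cell marker mean (9.11) and the highest actin ratio (2.65), and the part of these in its levels was not tested. Cdkn1a (8.51), Bbc3 (6.65) and Ccng1 (11.77) in mPTCL 5 lay within the range of the other lymphomas. The opposite end was held most often by mPTCL 6, which was lowest for 7 of the 26 members (26.9%, against 16.4% of all genes).

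**Figure D3:**
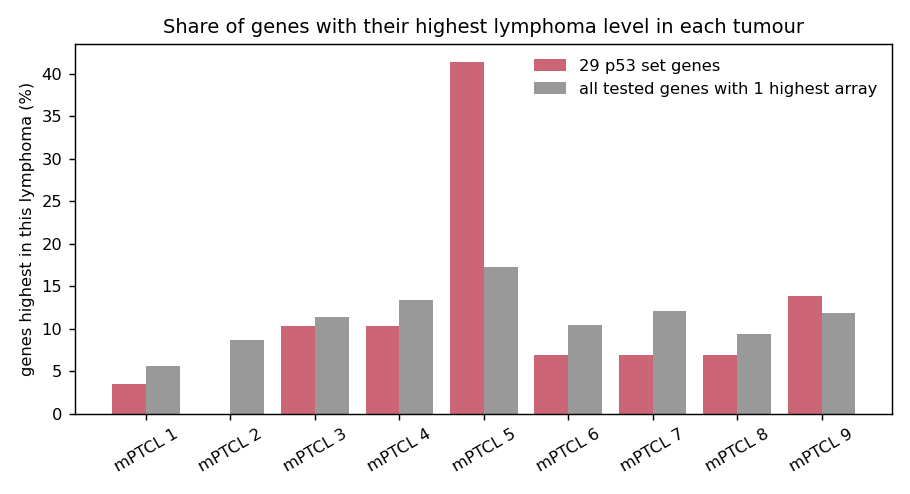
Percentage of genes whose highest lymphoma level lies in each of the 9 tumours (horizontal axis), for the 29 tested members and for all tested genes with a single highest array. The bar of mPTCL 5 reaches 41.4% for the members and 17.3% for all genes.

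Without mPTCL 1 and 5, the tumours high in B cell markers, 9 members were called against resting cells, where 14.6% of all genes were called, including Fas (-2.46, limma adjusted p = 0.00357) and Sesn1 (-1.04, adjusted p = 0.00666). Against activated cells 12 were called, 10 of them lower, with Mdm2 (-1.06), Sesn1, Trp53inp1 (-1.57), Zfp365 and Ercc5 added to the 7, where 17.4% of all genes were called. Without the 5 tumours high in neutrophil markers, Ckap2, Mdm4, Perp and Ercc5 were still called against resting cells, where 12.7% of all genes were called, while Cdkn1a (1.58, adjusted p = 0.108), Rrm2b (-1.22, 0.0959) and Btg2 (-1.52, 0.0668) kept their direction and did not pass, and Fas and Sesn1 were added. Against activated cells, the same removal kept the calls of Mdm4, Fas and Aen. Plk3 (2.30, adjusted p = 0.0874), Bbc3 (-0.81, 0.101), Btg2 (-1.44, 0.0604) and Polk (-1.75, 0.05 after rounding) did not pass, and Mdm2, Sesn1, Trp53inp1, Perp and Ercc5 were added, where 16.4% of all genes were called.

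Whether textbook targets vary together between tumours was examined for Mdm2, Cdkn1a, Ccng1, Phlda3 and Zmat3, which form 10 pairs. Across the 9 lymphomas no pair passed after adjustment (2-sided exact permutation tests). Cdkn1a and Ccng1 came nearest and ran in opposite directions (Pearson r = -0.89, exact permutation p = 0.00767, adjusted p = 0.0767; Spearman rho = -0.72, exact permutation p = 0.0369, adjusted p = 0.294). In the 7 other lymphomas, without mPTCL 7 and 9, r was -0.26. Without mPTCL 1 and 5, the tumours high in B cell markers, the pair passed for Pearson's r over 7 lymphomas (r = -0.98, exact permutation p = 0.00119, adjusted p = 0.0119; rho = -0.93, exact permutation p = 0.00675, adjusted p = 0.0675), with -0.74 over the 5 left when mPTCL 7 and 9 were removed as well. Mdm2 and Cdkn1a, which p53 induces together, gave r = 0.23 (exact permutation p = 0.539; rho = 0.32, p = 0.410; adjusted p = 0.781 and 0.885), and Mdm2 and Phlda3 gave r = 0.61 (exact permutation p = 0.0812; rho = 0.67, p = 0.0589; adjusted p = 0.406 and 0.294), with -0.09 and 0.29 when the 2 tumours farthest from the median of Mdm2 were left out.

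**Figure D4:**
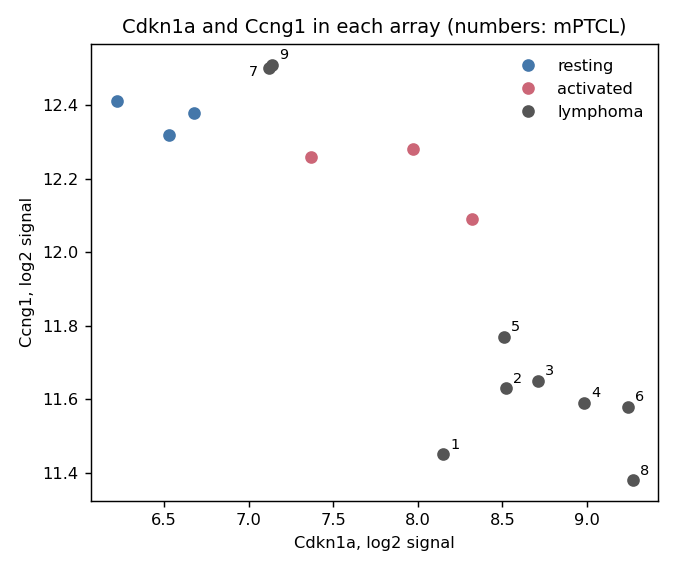
Log2 signal of Cdkn1a (horizontal axis) and Ccng1 (vertical axis) in each array, by group, with lymphomas numbered. mPTCL 7 and 9 lie apart from the other 7 lymphomas, low in Cdkn1a (7.12 and 7.14) and high in Ccng1 (12.50 and 12.51).

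Beyond the members, 79 further genes of the pathway were followed, of which 74 were on the array and 67 were tested. This list, too, was chosen with earlier results known. Between activated and resting cells, 7 were called without activated replicate 1, where fewer of all genes were called too (shares in the last section). With all arrays 9 rose and 3 fell (17.9%, against 12.7% of all genes). Those with the largest rises were the spindle protein Psrc1 (3.87 ± 0.20, at least 14.6-fold, with all resting arrays at the floor; limma adjusted p = 1.06e-04), the checkpoint kinase Chek1 (2.14 ± 0.33), the sugar reductase Dcxr (1.83 ± 0.41) and the G2 regulator Gtse1 (1.67 ± 0.43). The 3 that fell were the epoxide hydrolase Ephx1 (-1.73 ± 0.13), the tetraspanin Cd82 (-1.26 ± 0.09) and Ppp1r13b (-1.09 ± 0.09), which directs p53 to death genes.

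In lymphomas against resting cells 6 of the 67 rose and 4 fell (14.9%, against 13.9%), or 6 in all without resting replicate 1. Without a resting array, fewer of all genes were called as well (shares in the last section). Sulf2, a sulfatase of the cell surface, was 4.78 ± 0.99 log2 units higher (at least 27.4-fold, limma adjusted p = 0.00609), ahead of Chek1 (3.46 ± 0.39), Dcxr (3.35 ± 0.56) and the lipase Abhd4 (2.12 ± 0.34). Ephx1 (-3.46 ± 0.79), the third sestrin Sesn3 (-2.84 ± 0.56, adjusted p = 0.00451), Ppp1r13b (-2.37 ± 0.40) and Def6 (-1.09 ± 0.20) fell. Against activated cells 7 rose and 6 fell (19.4%, against 15.3%), or 8 in all without activated replicate 2 or 3. Without an activated array, too, fewer of all genes were called. Sulf2 (4.80 ± 0.99), the transcription factor Klf4 (3.91 ± 1.1), the ribosomal protein Rps27l (1.57 ± 0.25) and the death agonist Bid (1.52 ± 0.29, adjusted p = 0.00374) led the rises, and Sesn3 (-3.06 ± 0.56), Psrc1 (-2.64 ± 0.57), the nuclear body gene Pml (-2.48 ± 0.52) and Def6 (-1.36 ± 0.19) the falls.

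Of the 7 upstream kinases tested, Chek1 and Mapk14 (p38) rose in lymphomas against both normal states. The damage kinase Atm was -0.85 ± 0.26 in lymphomas against resting cells (limma adjusted p = 0.0405), under 2-fold. The p53 relatives Trp63 and Trp73 lay at the floor or up to 6.51 and 6.63 in all arrays and were not tested. Cdkn2a, which encodes the Mdm2 inhibitor Arf and was picked after its values were seen, was at 5.10 to 5.97 in resting cells, 5.00 to 5.87 in activated cells and 5.00 to 10.48 with a median of 8.76 in lymphomas, a difference that did not pass (2.58 ± 1.22 against resting cells, adjusted p = 0.158).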

How the data were processed

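RNA of each sample was hybridised to 1 Affymetrix oligonucleotide array. The deposited values are signal intensity on a linear scale, made by the authors with MAS5 and Expression Console (1.1 for lymphomas, no version given for normal cells), per the submitters' processing notes. Signals below 32 were raised to that floor (a log2 value of 5) before taking logarithms. Of 45101 probe sets, 34958 carried 1 gene symbol, 932 several and 9211 none. Symbols of 34754 were updated by gene identifier, and 64 controls were left out. For each of 18193 genes the brightest probe set on average was kept. Testing was limited to the 11902 genes reaching 100 in 3 or more arrays and used limma 3.58.1 (R 4.3.3; lmFit, eBayes with a trend) on the arrays of the groups compared. Fits were run on simulated data with planted changes. That check covered the sign of called changes in each comparison, and their recovery only for activated against resting cells. It set no limit on false calls. A fold is a lower bound where the other group holds arrays at the floor. The number of arrays limits the precision.

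Members and gene lists were chosen with earlier results of these data known. Called members and a fixed set of textbook targets were given by sample, and at most 4 further pathway genes per direction and comparison were named. Promoters came from RefSeq tables. Alternatives were other floors, pseudocounts, filters, scalings, probe set choices, fits and left-out arrays. Resting and activated samples share replicate numbers, which the labels do not tie to animals. A listed gene not reported is not analysed here.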

Additional observations from a re-analysis of the deposited data

Results flagged for a closer look

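In each of 30 members, the lymphoma farthest from the other 8 was examined by the size of its gap, a check that flags about 1 group in 20 by chance. Of these, 5 had a tumour far from the others. Fas at 9.59 and Sesn1 at 14.46 on the log2 scale were far above the next lymphoma in mPTCL 5 (6.98 and 13.14). Rrm2b was far below in mPTCL 6 (7.99, next 8.92), Zmat3 in mPTCL 9 (6.33, next 8.45) and Gadd45a in mPTCL 3 (5.00, next 7.67).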

How the results depend on the processing

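No member's direction reversed among its called results under any setting run. Between activated and resting cells, the 6 members and 12 other pathway genes called became 3 and 2 with all 15 arrays in 1 fit (3.34% of all genes called), and 12 and 21 with the adjusted p alone (30.9%). Leaving out 1 array gave 5 to 7 members and 7 to 13 others (10.6% to 12.6% of all genes). Against resting cells, the 7 members called in lymphomas became 2 with the mean of probe sets (13.5% of all genes) and 11 with array weights (22.8%, against 13.9%), and the 10 others became 18 with array weights. Leaving out 1 array gave 1 to 8 members and 6 to 11 others (6.54% to 6.95% of all genes without a resting array, 12.6% to 15.5% without a lymphoma). Against activated cells, the 7 members became 12 with array weights (24.8% of all genes, against 15.3%) and 12 without the 2 lymphomas high in B cell markers (17.4%), an alternative chosen after seeing the data. Leaving out 1 array gave 2 to 11 members and, for the 13 others, 8 to 14 (7.70% to 7.80% of all genes without an activated array, 13.7% to 18.2% without a lymphoma). Of the 10 pairs of textbook targets, 0 were called correlated, 1 after quantile normalization, 1 without the 2 lymphomas high in B cell markers (Cdkn1a and Ccng1), and 0 to 2 with 1 lymphoma left out. The causes of these differences were not tested. With the replicate number as a block, 6 members and 12 others were called between activated and resting cells, the same genes. Same-numbered samples did not deviate together (correlations of -0.01, 0.05 and -0.01), so the numbers were not taken as pairs. Signal near the floor limits Phlda3, Tnfrsf10b, Dram1 and Perp, as well as Plk3 in activated cells and Fas and Zfp365 in lymphomas.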
